A study of Mus musculus with 6 samples.

Results

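Semaphorins are guidance ligands, and plexins and neuropilins are their receptors. The data describe the transcripts of all 31 listed members of these families (20 semaphorins, 9 plexins and 2 neuropilins) in proprioceptive sensory neurons of the mouse. A row was taken where its gene symbol equalled a member's symbol, and each of the 31 was found once among the 36814 genes of the deposited table. RNA came from 6 pools of neurons, 3 supplying the tibialis anterior (TA, an ankle flexor) and 3 supplying the gastrocnemius (GS, an ankle extensor). Both groups came from the Pv::YFP reporter line, in which a parvalbumin promoter marks proprioceptors. Either muscle received the tracer ctb-555 on postnatal day 0. A day later, at postnatal day 1, the neurons carrying it were collected individually by hand and pooled, 25 to 30 per sample. The 3 samples of each muscle are labelled as biological replicates, but their animals of origin, pooled or separate, are named in no source used here, so p-values measure the spread between these pools.

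Class 3 semaphorins are secreted and mostly act through a neuropilin that pairs with an A plexin. Classes 4 to 6 are transmembrane proteins, class 7 is tethered to the membrane by a lipid anchor, and most of these bind plexins without a neuropilin. In the developing spinal cord, Plxna1 on proprioceptive axons and its class 6 ligands Sema6c and Sema6d are known to keep those axons out of the superficial dorsal horn. Sema3e from motor pools and its receptor Plxnd1 on proprioceptors are known to shape which motor neurons these axons contact.

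Levels are given as RPKM, reads scaled to gene length and library total, as deposited, and are listed in the order of replicates 1, 2 and 3. Net reads on genes ranged from 7038296 to 21125960 per library, and between 17 and 23 of the 31 members reached 1 RPKM in each. A 0 is described only as listed at 0, since all 38 genes of the mitochondrial chromosome were also listed at 0 in every library. Proprioceptor markers (11 genes) summed to 6852 to 9871 RPKM per pool. Most of this sum came from the neurofilament genes Nefl and Nefm, with means of 4382 and 2727 RPKM. Means of the other markers ran from 16.1 RPKM for Runx3 to 282 RPKM for Nefh. The sum therefore does not by itself show that the cells were proprioceptors. Spp1 was the only one of the 11 called between the muscles (higher in GS). Pvalb, whose promoter marks the collected cells, measured 69.0, 93.5 and 47.8 RPKM across the TA pools, compared with 4.26, 10.4 and 31.3 RPKM across the GS pools. These groups did not overlap, and the log2 fold change was 2.46 with a limma adjusted p of 0.168. Its part in the differences of the members was not tested. Nociceptor markers (8 genes, Mrgprd listed at 0 throughout) summed to 169 RPKM in GS replicate 2 and 28.8 to 83.8 RPKM in the other libraries. Skeletal muscle markers (10 genes) reached a sum of 324 RPKM in TA replicate 3, with no other library above 5.34 RPKM. Connective tissue markers (5 genes) summed to 27.8 RPKM in that library and at most 6.14 RPKM in the others. Glial markers (10 genes) summed to between 116 and 235 RPKM. Endothelial markers summed to at most 0.900 RPKM, with Cldn5, Kdr and Tie1 listed at 0 throughout, and motor neuron markers to at most 7.54 RPKM, with Mnx1 and Chat listed at 0.

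TA proprioceptors had more transcript of Sema5a, a transmembrane semaphorin, and Sema5a was the only member that passed the test. TA and GS were compared with limma over 10828 genes on log2(RPKM + 1), with calls made where the adjusted p was under 0.05. Of 21 members that reached a mean of 1 RPKM and entered the fit, 1 was called as higher in TA and 0 as higher in GS, where 0.175% and 0.129% of all genes tested were called. At an unadjusted p under 0.05 there were 5 members towards TA and 1 towards GS, against 8.30% and 2.12% of all genes (899 and 230). After each library was centred on its median the members' counts were again 5 and 1, while those of all genes became 508 and 411, and quantile normalization gave 5 and 1 against 492 and 444. Among the 21, the 3 TA values lay above the 3 GS values in 5 members (Sema3d, Sema4g, Sema5a, Sema7a and Plxna2) and below them in 1 (Sema6d), against 13.1% and 3.48% of all genes tested. Of the 21, 15 had a log2 fold change above 0 (TA minus GS), against 66.0% of all genes, and their median was 0.25 against 0.24. The 19 and 14 genes called over the whole table became 11 and 17 after each library was centred on its median, and 16 and 19 after quantile normalization. Each TA library had more of the tested genes at 1 RPKM or above (9687 to 9934) than each GS library (8500 to 9470), and the part of this in the shift towards TA was not tested.

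**Figure D1:**
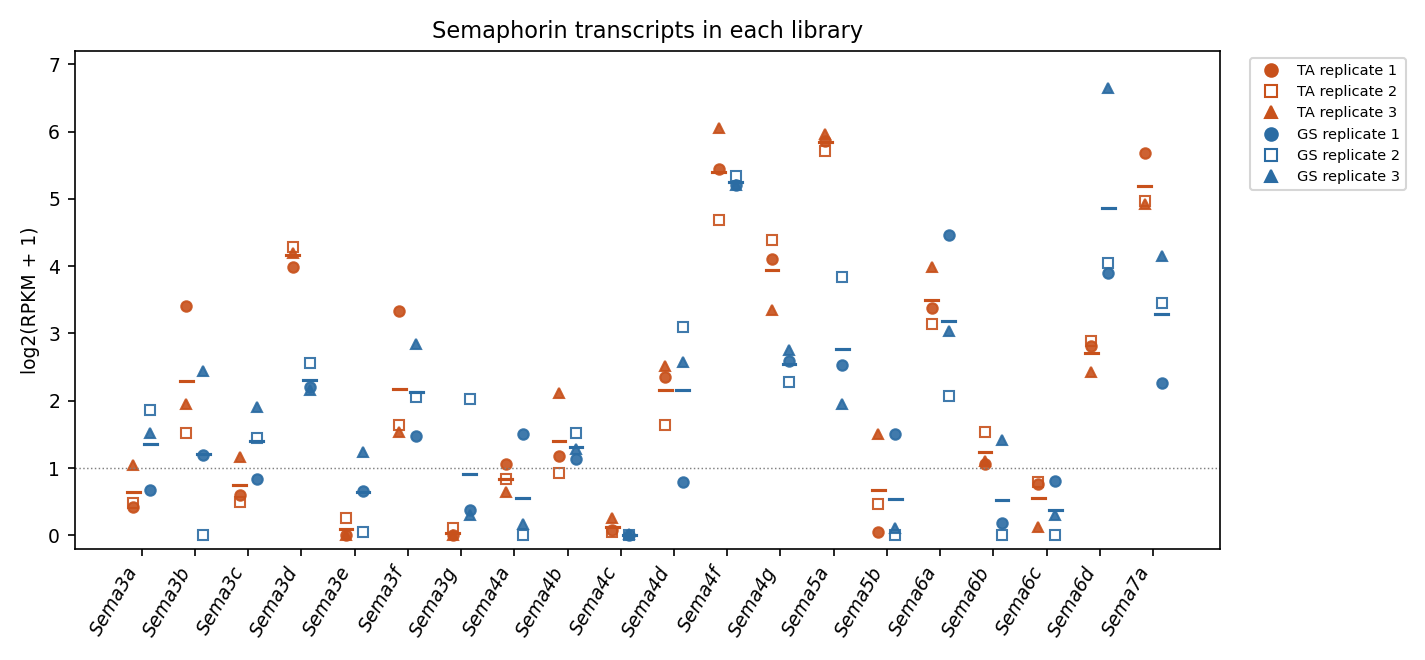
Level of each of the 20 semaphorins in the 6 libraries, as log2(RPKM + 1), where points are libraries, bars are group means and the dotted line marks 1 RPKM. All 3 TA points lie above all 3 GS points for Sema5a, Sema7a, Sema3d and Sema4g and below them for Sema6d, with GS replicate 3 at 99.0 RPKM far above the other Sema6d points.

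Sema5a carries thrombospondin repeats next to its semaphorin domain and is known to signal through A plexins. It measured 57.0, 51.4 and 61.4 RPKM across the TA pools, compared with 4.78, 13.3 and 2.88 RPKM across the GS pools. All 3 TA pools were close together, the GS pools differed among themselves, and the lowest TA value was 3.87 times the highest GS value. The mean was 56.6 ± 4.98 RPKM for TA against 6.98 ± 5.54 RPKM for GS (SD, n = 3), an 8.11-fold difference. The log2 fold change was 3.07 ± 0.47 (SE), or 2.83 relative to the median of all genes, with a limma adjusted p of 0.0290. These values rest on 47822 net reads over a gene of 12070 bases (ENSMUSG00000022231, chromosome 15, 32174568 to 32626096, plus strand, mm9) that no other annotated gene overlaps. The size held when single libraries were left out (2.66 to 3.60), but the call did not. Its adjusted p was 0.211, 0.190 and 0.156 without TA replicates 1, 2 and 3, and 0.0788, 0.00789 and 0.0762 without GS replicates 1, 2 and 3.

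The upstream sequence of Sema5a is shown because this gene carried the only called difference, with that of Sema6d further on for the largest difference towards GS. RefSeq start sites (GRCm38.p6) were in the table used for 26 of the 31 members, with 37 starts in all. The 250 bases before the Sema5a start (chr15:32244563-32244812, plus strand) hold 5 copies of the GC box GGGCGG or its reverse complement CCGCCC, printed in capitals, of which some overlap.
Sema5a: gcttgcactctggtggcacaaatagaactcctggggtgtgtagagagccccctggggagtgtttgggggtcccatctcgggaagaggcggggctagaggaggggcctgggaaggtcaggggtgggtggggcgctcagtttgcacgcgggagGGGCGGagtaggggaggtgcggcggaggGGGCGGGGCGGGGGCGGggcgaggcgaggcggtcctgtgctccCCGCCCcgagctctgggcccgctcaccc
This window is 72.0% G or C with 17 CpG pairs, where the median is 52.4% and 6 over 32851 promoters of the same length. A GC box on either strand occurs in 32.7% of all promoters and in 27 of the 37 windows of the members. The window holds no match to TGTGGT, a Runx motif, to GGAAGT, an Ets motif, or to TATAAA. On both strands these occur in 14.0%, 19.7% and 12.4% of all promoters and in 5, 7 and 0 of the 37.

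Sema5b, the other class 5 semaphorin, was low in every library, between 0 and 1.83 RPKM. Its mean of 0.691 RPKM lay under the filter, so it was not tested.

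Sema7a, which binds Plxnc1 and beta 1 integrin, measured 50.5, 30.2 and 29.3 RPKM across the TA pools, compared with 3.78, 9.93 and 16.8 RPKM across the GS pools. Every TA value lay above every GS value, with a mean of 36.7 ± 11.97 RPKM for TA against 10.2 ± 6.50 RPKM for GS (SD, n = 3). Its log2 fold change of 1.90 ± 0.49 had a 95% interval of 0.82 to 2.99 and a limma adjusted p of 0.222, so it did not pass over all genes.

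Among the secreted class 3 ligands, Sema3d had the highest mean, and its replicates lay close together. It measured 14.9, 18.5 and 17.4 RPKM across the TA pools, compared with 3.60, 4.90 and 3.45 RPKM across the GS pools, so the groups did not overlap. The means were 16.9 ± 1.84 and 3.98 ± 0.797 RPKM (SD, n = 3), a 4.26-fold difference. Its log2 fold change was 1.86 ± 0.36 with a limma adjusted p of 0.0830, the second lowest adjusted p among the members.

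The other class 3 ligands were below 10 RPKM in every library. Sema3b and Sema3f, which both act through Nrp2, ranged from 0 to 9.66 RPKM and from 1.77 to 9.09 RPKM, and both were highest in TA replicate 1. Sema3a, the classical collapsin that acts through Nrp1, and Sema3c ranged from 0.337 to 2.65 RPKM and from 0.404 to 2.74 RPKM. None of these 4 passed the test, and their groups overlapped. Sema3e and Sema3g lay under the filter and are described with the authors' lists.

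Sema4f, a transmembrane class 4 ligand, had the highest mean of all 31 members. It measured 42.3, 24.7 and 65.6 RPKM across the TA pools, compared with 35.9, 39.3 and 35.8 RPKM across the GS pools. The TA values spread on both sides of the GS values, and 94.1% of all genes tested had a lower mean. Its log2 fold change was 0.15, with a 95% interval from -0.69 to 0.98, which reaches differences in either direction.

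Sema4g measured 16.2, 20.0 and 9.22 RPKM across the TA pools, compared with 5.05, 3.84 and 5.72 RPKM across the GS pools. These groups did not overlap, although TA replicate 3 came near the GS values. The log2 fold change was 1.41 ± 0.41 and the limma adjusted p 0.290, so Sema4g did not pass.

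Sema4d, the ligand of Plxnb1, ranged from 0.725 to 7.58 RPKM, with both of these extremes in GS libraries. Sema4b ranged from 0.894 to 3.35 RPKM. Neither passed the test. Sema4a lay under the filter, at no more than 1.85 RPKM. Sema4c, also under it, measured 0.0571, 0.0331 and 0.192 RPKM across the TA pools, compared with 0, 0 and 0.0129 RPKM across the GS pools. These groups did not overlap, on 36 net reads in all.

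Sema6d, the class 6 ligand of Plxna1, had the largest difference towards GS among the tested members, and it did not pass the test. It measured 6.01, 6.39 and 4.37 RPKM across the TA pools, compared with 13.9, 15.5 and 99.0 RPKM across the GS pools. All GS values lay above all TA values, and GS replicate 3 stood far above the other 2. The log2 fold change was -2.15 ± 0.65, or -2.39 relative to the median of all genes, with a limma adjusted p of 0.308. Without GS replicate 3 the log2 fold change was -1.26 (adjusted p of 0.244) and the ratio of GS over TA means fell from 7.66 to 2.63.

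The 2 RefSeq starts listed for Sema6d lie 563612 bases apart on the plus strand of chromosome 2, and the deposited values give 1 level for the whole gene, so they do not tell which start was used. The 250 bases before each are chr2:124089719-124089968 and chr2:124653331-124653580 (GRCm38.p6), with motif matches in capitals.
Sema6d, first start: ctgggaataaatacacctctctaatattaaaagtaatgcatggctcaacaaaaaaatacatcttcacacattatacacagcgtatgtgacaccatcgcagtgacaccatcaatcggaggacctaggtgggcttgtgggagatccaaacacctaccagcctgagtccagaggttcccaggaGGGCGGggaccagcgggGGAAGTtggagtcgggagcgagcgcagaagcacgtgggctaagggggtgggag
Sema6d, second start: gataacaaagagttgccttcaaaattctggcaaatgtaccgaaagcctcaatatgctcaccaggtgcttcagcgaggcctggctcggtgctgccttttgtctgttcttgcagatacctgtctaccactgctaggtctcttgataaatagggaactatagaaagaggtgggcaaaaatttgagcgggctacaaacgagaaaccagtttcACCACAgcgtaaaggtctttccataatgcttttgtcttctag
The capitals mark a GC box and an Ets motif (GGAAGT) in the first window and the reverse complement of the Runx motif (ACCACA) in the second. The first window is 52.4% G or C and the second 45.2%.

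Sema6a, a ligand of Plxna2 and Plxna4, measured 9.42, 7.81 and 14.8 RPKM across the TA pools, compared with 21.0, 3.19 and 7.22 RPKM across the GS pools. The GS pools held both the highest and the lowest value, and the limma adjusted p was 0.880. Sema6c, the other class 6 ligand known from the dorsal horn, was at no more than 0.758 RPKM. Sema6b had a mean of 0.993 RPKM, just under the filter, while Sema3a, just above it, had a mean of 1.15 RPKM.

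**Figure D2:**
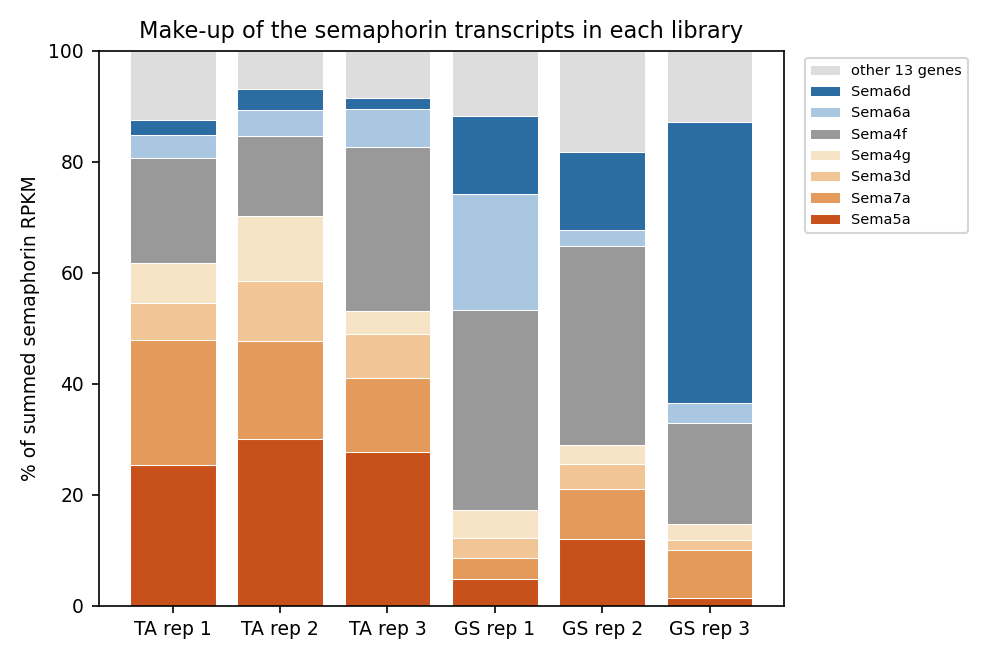
Share of the summed RPKM of the 20 semaphorins taken by each of 7 genes and by the other 13 together, in each of the 6 libraries. Sema5a takes 25.4 to 30.1% of the TA bars and 1.47 to 12.1% of the GS bars, and Sema6d takes 50.5% of the bar of GS replicate 3.

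The ligands were also compared within each library, where a share does not depend on how libraries are scaled. Summed over the 20 semaphorins, TA replicates 1, 2 and 3 held 224, 171 and 221 RPKM and GS replicates 1, 2 and 3 held 99.8, 110.0 and 196 RPKM. Sema5a made up 27.8 ± 2.33% of that sum in TA and 6.11 ± 5.42% in GS (SD, n = 3). Sema4f made up 21.0 ± 7.83% and 30.0 ± 10.2%, with overlapping groups. Sema6d made up 2.80 ± 0.887% in TA and 26.2 ± 21.1% in GS, where GS replicates 1, 2 and 3 were at 13.9, 14.1 and 50.5%. The ratio of Sema5a to Sema6d, the tested members with the largest differences in each direction, was 8.04 to 14.0 in the TA libraries and 0.0291 to 0.858 in the GS libraries, a description of a pair chosen for those differences.

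**Figure D3:**
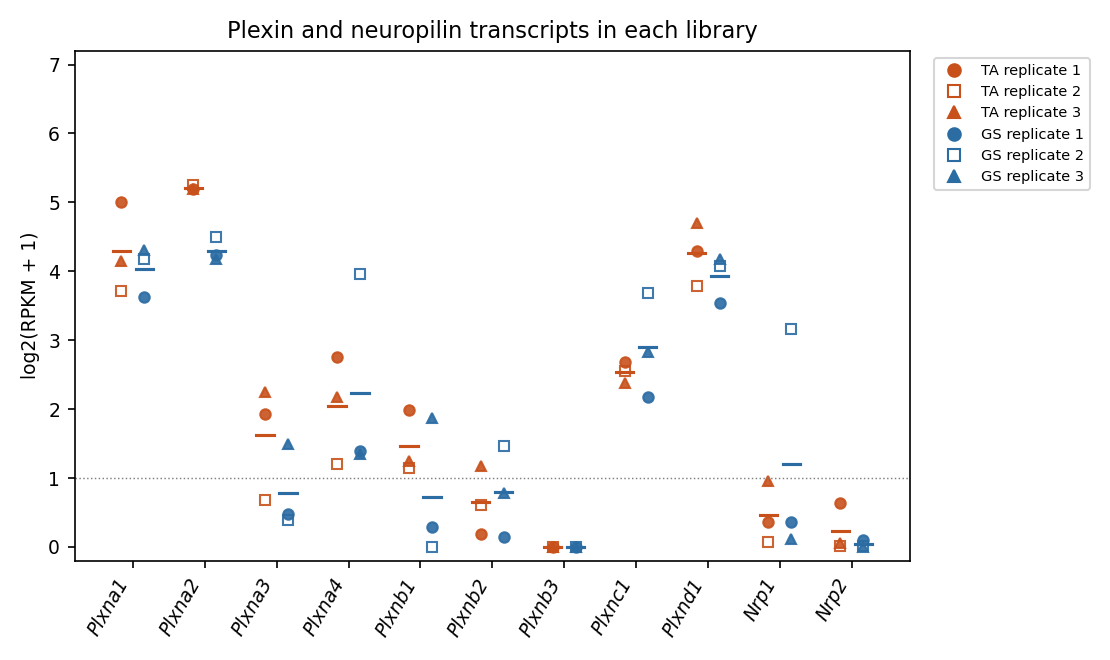
Level of the 9 plexins and 2 neuropilins in the 6 libraries, as log2(RPKM + 1), where points are libraries, bars are group means and the dotted line marks 1 RPKM. The TA points of Plxna2 (35.5 to 36.9 RPKM) lie above its GS points (17.1 to 21.6 RPKM), and Nrp1 exceeds 1 RPKM only in GS replicate 2.

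Plexin transcripts were dominated in both muscles by Plxna2, Plxna1 and Plxnd1. No plexin passed the test (0 of 7 tested with limma), where 0.305% of all genes tested were called. At an unadjusted p under 0.05 there was 1 plexin towards TA, against 8.30% of all genes. Plxna2, a receptor of class 6 semaphorins and a co-receptor of secreted ones, measured 35.7, 36.9 and 35.5 RPKM across the TA pools, compared with 17.8, 21.6 and 17.1 RPKM across the GS pools. Both groups were tight and did not overlap, at 36.0 ± 0.761 and 18.8 ± 2.40 RPKM (SD, n = 3). The log2 fold change was 0.91 ± 0.31, or 0.67 relative to the median of all genes, with a limma adjusted p of 0.366. It ranged from 0.85 to 1.01 when single libraries were left out.

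Plxna1, the receptor of Sema6d and Sema6c on proprioceptive axons, measured 31.1, 12.1 and 16.8 RPKM across the TA pools, compared with 11.3, 17.0 and 18.9 RPKM across the GS pools. The groups overlapped, and the log2 fold change of 0.25 had a 95% interval from -0.67 to 1.17. Plxna1 shares part of its locus with the gene model Gm16896 on the opposite strand, at a mean of 7.50 RPKM, and no source used here says if reads were assigned by strand.

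Plxnd1, which binds Sema3e directly, measured 18.6, 12.8 and 24.9 RPKM across the TA pools, compared with 10.6, 15.8 and 17.1 RPKM across the GS pools. The values overlapped, and the log2 fold change of 0.33 had a 95% interval from -0.51 to 1.17. Plxnd1 was thus present in all 6 pools, while its ligand Sema3e measured 0.00864, 0.200 and 0 RPKM across the TA pools, compared with 0.577, 0.0334 and 1.35 RPKM across the GS pools.

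Plxnc1, the plexin that binds Sema7a, measured 5.43, 4.87 and 4.22 RPKM across the TA pools, compared with 3.50, 11.8 and 6.12 RPKM across the GS pools. Its groups overlapped and it did not pass the test. The ratio of Sema7a to Plxnc1 was 6.21 to 9.29 in the TA libraries and 0.839 to 2.74 in the GS libraries, groups that did not overlap. Of 6 ligand and receptor ratios computed, 3 overlapped between the muscles. Sema6a over Plxna2 was 0.212 to 0.416 in TA and 0.148 to 1.18 in GS. Sema4d over Plxnb1 was 1.38 to 3.42 in TA and 1.88 to 3.28 in the 2 GS libraries where Plxnb1 was above 0. Sema3e over Plxnd1 was 0 to 0.0156 in TA and 0.00211 to 0.0789 in GS. The other 3 did not overlap, and each has a ligand whose own levels did not. Sema5a over Plxna1 was 1.83 to 4.24 in TA and 0.152 to 0.781 in GS. Sema6d over Plxna1 was 0.193 to 0.527 in TA and 0.910 to 5.24 in GS.

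Plxna4, which binds Sema6a and takes part in Sema3a signalling, measured 5.77, 1.29 and 3.53 RPKM across the TA pools, compared with 1.62, 14.5 and 1.54 RPKM across the GS pools. Only GS replicate 2 stood above the TA range. Plxna3 ranged from 0.309 to 3.76 RPKM, and Plxnb1, a receptor of Sema4d, from 0 to 2.97 RPKM. Neither passed the test. Plxnb2 reached at most 1.75 RPKM, and Plxnb3 was listed at 0 in all 6 libraries.

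Both neuropilins were close to 0 in most pools. Nrp1 measured 0.288, 0.0514 and 0.939 RPKM across the TA pools, compared with 0.284, 7.92 and 0.0801 RPKM across the GS pools. A single library, GS replicate 2, held 923 of its 1172 net reads. Nrp2 was at no more than 0.551 RPKM, on 105 net reads over all libraries. Across genes, GS replicate 2 resembled the remaining 5 libraries least (mean r of 0.728, where each of those had 0.780 to 0.834). Its nociceptor marker sum was the highest of the 6, with Calca alone at 133 of the 169 RPKM. Tac1 and Trpv1 were listed at 0 in it, and Scn10a and Prdm12 were higher in other libraries. Over all libraries the log2 fold changes of Nrp1 and Plxna4 were -0.75 and -0.18 (limma adjusted p of 0.777 and 0.947). Without GS replicate 2, Nrp1 fell under the filter and Plxna4 was at 0.68. The part of other neuron types in the Nrp1 and Plxna4 values was not tested. In such pools, fewer cells of a type and less RNA per cell cannot be told apart.

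**Figure D4:**
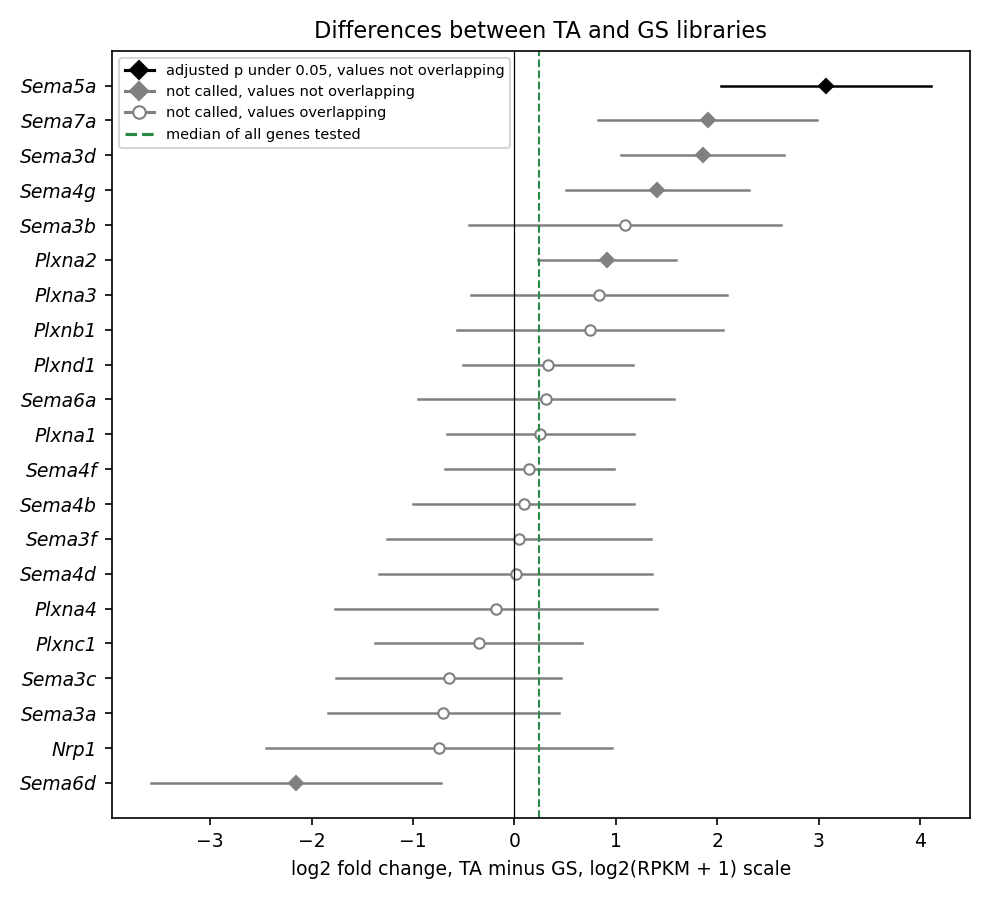
Log2 fold change (TA minus GS, log2(RPKM + 1) scale) of the 21 tested members, with the 95% interval from limma as a line, unadjusted for the number of genes. Sema5a at 3.07 is the only called member, diamonds mark the 6 of these members whose groups do not overlap, and the dashed line marks the median of all genes, 0.24.

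In all, 5 members stood on the authors' deposited lists, 1 on the list of genes higher in TA (1.07% of all genes in the table) and 4 on the list of genes higher in GS (0.907%). The authors' deposited table gave Sema5a a GS over TA ratio of 0.154 and an adjusted p of 0.00104. Sema6d had a ratio of 9.74 and an adjusted p of 4.17e-05 in the authors' deposited table, against a limma adjusted p of 0.308 over the 3 replicates here. The authors' signal was 1 sum per muscle, and the 3 GS libraries that it sums held 2451, 3226 and 17670 net reads of Sema6d. The authors' deposited table gave Nrp1 a ratio of 6.35 and an adjusted p of 0.693, and Sema3e a ratio of 16.8 and an adjusted p of 0.942. Sema3g had a ratio of 89.4 and an adjusted p of 0.197 there. It measured 0, 0.0837 and 0 RPKM across the TA pools, compared with 0.304, 3.08 and 0.235 RPKM across the GS pools, without overlap. Of its 322 net reads, 276 came from GS replicate 2. Nrp1 and Sema3g thus drew most of their GS signal from GS replicate 2, and Sema6d from GS replicate 3.

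**Figure D5:**
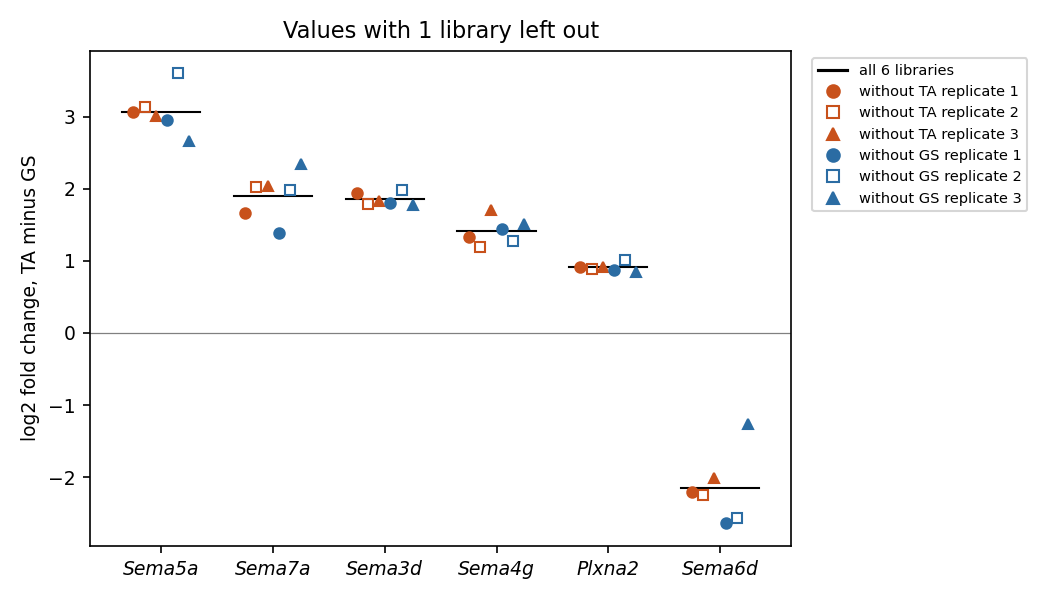
Log2 fold change (TA minus GS) of the 6 tested members whose groups do not overlap, with all 6 libraries (black line) and with each library left out (points). Sema5a stays between 2.66 and 3.60, and Sema6d moves from -2.15 to -1.26 without GS replicate 3. As these groups do not overlap, leaving out a library cannot change a direction.

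Genes that work with semaphorin receptors inside the cell or at the membrane were counted beside them. Of 42 such partners 33 entered the fit, and limma called 0 in either direction, where 0.305% of all genes tested were called. At an unadjusted p under 0.05 there were 5 partners towards TA and 1 towards GS, against 8.30% and 2.12% of all genes. The median log2 fold change of the partners was 0.18, against 0.24 for all genes. In 6 partners the TA values lay above the GS values and in 1 below them, where all genes gave 13.1% and 3.48%. The partners with the highest means were the collapsin response mediators Dpysl2 and Dpysl3 (128 and 113 RPKM) and the adhesion protein L1cam (85.5 RPKM), a co-receptor in Sema3a signalling. Ranbp9, a scaffold protein that binds A plexins, was at 14.4 to 20.2 RPKM in TA and 5.76 to 8.10 RPKM in GS, with a limma adjusted p of 0.301. Arhgef11, which binds B plexins, was at 12.3 to 14.3 and 4.93 to 7.29 RPKM, with an adjusted p of 0.357. Cdk5, a kinase of the collapsin response mediators, was at 13.5 to 29.5 and 5.06 to 12.9 RPKM, with an adjusted p of 0.422. Itgb1, the beta 1 integrin that also binds Sema7a, was at 29.0 to 39.3 RPKM in TA and 27.9 to 93.1 RPKM in GS. The VEGF receptor Kdr and the kinase Fes were listed at 0 in all libraries.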

How the data were processed

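Read and RPKM values per gene and library were deposited by the authors for 36814 genes. Bowtie 0.12.9, DESeq and the build mm9 are named in the submitters' processing notes, with the annotation not given in the sources used here. Per the file headers, the authors' lists give 1 read signal per muscle, the ratio of GS over TA, p-values and RPKM. Each signal was proportional to the summed reads of 3 libraries, within 0.0469%. Some deposited read values lie below 0 (683 genes, no member), so no count test was used.

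Genes with a value below 0 were left out (40 with a mean of at least 1 RPKM). The highest-mean row per symbol was kept, and 10828 genes with a mean of at least 1 RPKM over the 6 libraries were tested with limma 3.58.1 in R 4.3.3. The fit used log2(RPKM + 1), which understates changes of low genes, group as the only term, empirical Bayes with a trend and Benjamini-Hochberg adjustment over all genes. Group sizes were 3 and 3. The steps were tested on simulated data whose changes were about as large as that of Sema5a, with independent normal noise and no outlying pool. No result given here rests on that check. Smaller differences were not simulated. The members, lists and tests were chosen with earlier results of these data known. Values per library are given for tested members called, not overlapping between groups or among the 12 highest means. They are also given for Sema4c and for members on the authors' lists, chosen after their values were seen. Of the partner list, the 3 lowest p and 3 highest means are named, with Itgb1, Kdr and Fes chosen after seeing their values. Coordinates in mm9 give the last base as the end. The alternatives were the pseudocount, filter, scaling, values below 0, moderation, the replicate block and leaving out libraries.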

Additional observations from a re-analysis of the deposited data

How the results depend on the processing

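The direction of Sema5a, Sema7a, Sema3d, Sema4g, Plxna2 and Sema6d was the same under every alternative run. The TA and GS values of these members do not overlap, so only median centring or quantile normalization could have changed that direction. Sema5a lost its call in 9 of 18 alternatives, among them log2(RPKM + 0.1) (limma adjusted p of 0.0543) and moderation without a trend (0.0636). The number of members called by limma as higher in TA, 1 of 21, was 0 with log2(RPKM + 0.1), with no filter on the mean, without a trend and with TA replicate 3 and GS replicate 2 left out together, an alternative chosen after seeing the data, with 5 at an unadjusted p under 0.05 in each. It was 0 to 1 without single replicates. Over all genes, 19 higher in TA and 14 in GS became 7 and 6 with log2(RPKM + 0.1), 0 and 0 with no filter (1251 and 250 at an unadjusted p under 0.05), 9 and 8 with a mean of at least 5 RPKM, and 1 and 0 without those 2 libraries (721 and 201 at an unadjusted p under 0.05). Median centring gave 11 and 17. Without single replicates the counts were 1 to 19 and 1 to 10. The replicate block gave 8 and 8 over all genes, kept Sema5a called (adjusted p of 0.0490) and changed no other member's call. The deviations of same-numbered libraries from their group means had correlations of -0.07, -0.02 and -0.14. With so few libraries per group these values cannot tell if the numbers pair the pools.

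Of 362 member values under alternatives, 24 changed sign, in 8 members with an adjusted p of 0.821 to 0.995. Without single replicates Plxna1 ranged from -0.10 to 0.54, Plxna4 from -0.62 to 0.68, Plxnc1 from -0.72 to 0.040 and Sema3f from -0.54 to 0.41. Sema4b ranged from -0.27 to 0.33, Sema4d from -0.67 to 0.48, Sema4f from -0.19 to 0.50 and Sema6a from -0.25 to 0.95. Median centring gave -0.16 for Sema3f, -0.12 for Sema4b, -0.20 for Sema4d and -0.061 for Sema4f. Quantile normalization gave -0.25 for Sema3f, -0.31 for Sema4b and -0.24 for Sema4d. Without TA replicate 3 and GS replicate 2, Plxna4 was at 0.61, Plxnc1 at 0.12, Sema4b at -0.16, Sema4f at -0.14 and Sema6a at -0.49. The causes were not tested. Leaving out 1 library leaves 2 in its group, and the spread is shared over both groups. The 10 members under the filter held 0 to 722 net reads over the 6 libraries and were not tested with it.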
